A study of Mus musculus with 28 samples.

Results

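Round spermatids are the haploid germ cells that follow meiosis in the testis, and the data described here are the change in their RNA when Ddx25 is knocked out. Ddx25 encodes GRTH, the gonadotropin-regulated testicular RNA helicase. The arrays were chosen by their titles: 3 arrays of GRTH KO round spermatids and 3 arrays of WT round spermatids, 6 of the 28 arrays of the series. All mice were adult males of strain C57BL/6, the KO mice with the GRTH-/- genotype and the WT mice with an intact gene, and no treatment of the animals is recorded. The deletion is present in every cell of the KO animals, Leydig cells included, so the germ cells came from a testis in which the surrounding cells lacked GRTH too. The cells were separated by centrifugal elutriation, which sorts by size and density and gives enriched fractions, and total RNA was labelled and hybridised. Other fractions used for comparison were KO and WT spermatocytes (4 arrays each), KO and WT total testicular polysome RNA (3 each) and KO and WT Leydig cells (2 each). Whether replicate arrays hold RNA of different animals is not in the labels, so p-values cover only differences among these arrays, and these could be technical.

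GRTH is a DEAD-box RNA helicase of meiotic and haploid germ cells and of Leydig cells. It is known to take part in the export of mRNAs from the nucleus, in their storage in the chromatoid body of round spermatids and in their translation, and male mice without it are sterile because spermatids stop before elongation. Round spermatids make and store many mRNAs that are translated only days later, when the nucleus is condensed by transition proteins and then protamines and the flagellum and acrosome are built. Part of this programme is driven by the transcription factor CREM, which binds cAMP-response elements in the promoters of haploid genes.

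The promoters of genes for condensing chromatin and for a testis kinase are shown because their RNAs were lower in KO round spermatids (values below). Each runs from 250 bases before to 50 bases after the annotated start, 5′ to 3′ on the gene's own strand, from RefSeq on build GRCm38.p6. Capitals mark TGANNTCA, the cAMP-response element TGACGTCA with its middle bases left free. Both words were searched on both strands, and every TGACGTCA is also a TGANNTCA.
Prm1, chr16:10796774-10797073, minus strand: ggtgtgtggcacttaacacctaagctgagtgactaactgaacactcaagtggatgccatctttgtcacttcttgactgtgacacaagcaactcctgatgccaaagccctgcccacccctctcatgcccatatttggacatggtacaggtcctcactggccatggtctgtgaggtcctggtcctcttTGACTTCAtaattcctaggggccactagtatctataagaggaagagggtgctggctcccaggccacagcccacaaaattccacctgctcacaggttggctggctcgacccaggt
Prm3, chr16:10790865-10791164, minus strand: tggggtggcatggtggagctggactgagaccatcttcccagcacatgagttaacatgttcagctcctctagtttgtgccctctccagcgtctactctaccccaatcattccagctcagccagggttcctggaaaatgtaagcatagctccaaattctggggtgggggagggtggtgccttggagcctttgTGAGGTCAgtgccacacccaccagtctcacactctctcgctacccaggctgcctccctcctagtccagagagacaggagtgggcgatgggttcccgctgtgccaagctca
Tnp1, chr1:73015850-73016149, minus strand: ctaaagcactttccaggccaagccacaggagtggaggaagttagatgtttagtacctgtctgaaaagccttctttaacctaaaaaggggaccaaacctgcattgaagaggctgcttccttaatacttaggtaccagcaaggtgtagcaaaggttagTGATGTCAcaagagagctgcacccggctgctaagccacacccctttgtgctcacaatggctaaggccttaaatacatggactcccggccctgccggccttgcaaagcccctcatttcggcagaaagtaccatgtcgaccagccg
Tssk6, chr8:69901934-69902233, plus strand: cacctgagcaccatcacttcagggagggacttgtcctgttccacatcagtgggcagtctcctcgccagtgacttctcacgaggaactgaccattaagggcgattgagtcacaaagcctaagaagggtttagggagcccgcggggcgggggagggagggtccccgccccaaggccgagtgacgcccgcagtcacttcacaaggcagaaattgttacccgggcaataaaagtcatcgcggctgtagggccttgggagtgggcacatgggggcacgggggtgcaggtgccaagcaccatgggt
The match began 64 bases before the start in Prm1, 60 in Prm3 and 94 in Tnp1, and the Tssk6 window held none. The Prm2 and Tnp2 windows, which lie beside Prm1 and Prm3 on chromosome 16, also held none. Among genes called at least 2-fold lower in KO round spermatids, 85 of the 303 with a promoter in the table held TGANNTCA (28.1%). It was found in 22 of 232 promoters of genes called at least 2-fold higher (9.48%), and in 1029 of 7476 promoters of all genes tested (13.8%). The full word TGACGTCA was found in 3.96%, 2.59% and 3.91% of the same promoters. The median ratio of observed to expected CpG was 0.427 for the lower genes, 0.782 for the higher genes and 0.764 for all genes tested, and the median GC content was 54.3%, 59.7% and 60.3%. These are descriptions of letters in a window and were not tested.

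The deposited values are linear signal intensities per probe set, scaled to a trimmed mean of 500 on each of these 6 arrays. The signal at the upper quartile of probe sets was 320.3 to 335.3 on KO arrays and 277.7 to 290.1 on WT arrays. The 3′ to 5′ signal ratio of the actin control probe sets was 1.47 to 1.51 on KO arrays and 1.41 to 1.64 on WT arrays. That of Gapdh was 0.983 to 1.09 on KO arrays and 1.16 to 1.27 on WT arrays. In both genotypes arrays 1 and 2 resembled one another more than either resembled array 3: the SD of their log2 differences was 0.148 in KO and 0.147 in WT, against 0.204 to 0.221 for KO pairs with array 3 and 0.255 to 0.268 for WT pairs with array 3. WT array 3 stood at least 2-fold apart from both other WT arrays for 21 genes, and some rises in which it stood apart are given below with and without it. All 19 round spermatid markers were measured with mean signals above 50, and their summed signal was 234100 to 279200 on KO arrays and 303900 to 383000 on WT arrays.

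Ddx25 itself, the targeted gene on chromosome 9, had signals of 4596, 4241 and 3865 on KO arrays, against 18440, 16170 and 15470 on WT arrays. The groups did not overlap, and signal was left on each KO array. The log2 change was -1.97 ± 0.10 (SE, n = 3 each; adjusted p = 7.44e-06), a 3.93-fold lower level. Log2 changes here and below are differences of log2(signal + 16) and understate the change of dim genes. Whether the probe set of Ddx25 lies inside the deleted part of the gene was not known here, so this value checks the labels only in so far as its KO signal was lower.

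Of the 9097 genes tested, 5765 (63.4%) passed an adjusted p of 0.05, 3727 higher in KO (41%) and 2038 lower (22.4%). Most of these differences were small. Of the calls, 88.6% were under 2-fold; 285 genes (3.13%) were at least 2-fold higher and 371 (4.08%) at least 2-fold lower, and 11 and 37 passed 4-fold. The median log2 change of all genes tested was 0.15, and a list median near 0.15 is therefore near that of all genes. The direction split depended on the scaling: 64.6% of calls were higher as deposited, 58.6% with arrays centred on their medians and 54.8% after quantile normalization. With arrays 1 and 2 averaged to a single array per genotype, 4379 genes passed, 2824 higher and 1555 lower. Direction varied with level: in the dimmest of 4 equal bins of tested genes the median change was 0.23 and 14.4% were called lower, while in the brightest bin it was -0.10 and 39.6% were called lower. For 6239 genes (68.6%) the KO and WT values did not overlap. Values are for the probe set of a gene with the highest mean log2 value over all 28 arrays of the series, called its brightest here. Of the 85 named genes with several probe sets, 39 had at least 1 other in the opposite direction, 22 of them at a signal of 50 or more.

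**Figure D1:**
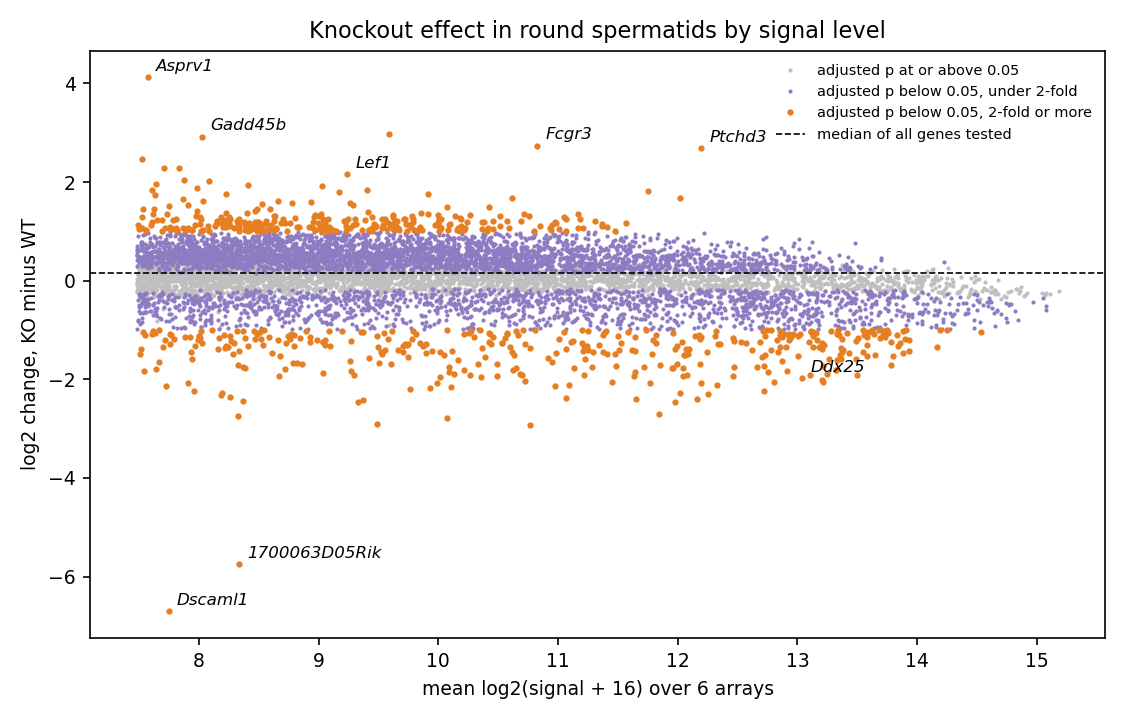
Log2 change (KO minus WT) against the mean log2(signal + 16) over the 6 round spermatid arrays, 1 point per tested gene, coloured by the adjusted p and by a change of at least 2-fold. The 371 genes lower by at least 2-fold lie across all levels up to the brightest genes, the 285 higher ones mainly at low and middle levels, and the dashed line marks the median of 0.15.

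The gene that fell most was Dscaml1, an adhesion molecule of the immunoglobulin superfamily known from neurons. Its signals were 5.68, 6.6 and 3.05 on KO arrays, against 2111, 2083 and 2327 on WT arrays. KO signal was thus near the bottom of the scale on each array and WT signal was strong on each; the log2 change was -6.70 ± 0.09 (adjusted p = 4.42e-08). The other 4 probe sets of Dscaml1, all dimmer, gave -1.92, -0.36, 0.96 and -0.11, so the size of this fall holds for 1 probe set. Next came 1700063D05Rik, an uncharacterised gene, with 27.7, 33.1 and 24.02 on KO arrays and 2280, 2301 and 2468 on WT arrays. Its change was -5.74 ± 0.09 (adjusted p = 7.97e-08), and its other probe set gave -3.26. Both genes lie on chromosome 9.

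The other 13 of the 15 largest falls lay between -2.93 and -2.36. Lrrc57, a leucine-rich repeat protein, had 1360, 1509 and 1405 on KO arrays and 9899, 9496 and 8785 on WT arrays, a change of -2.71 ± 0.08; its much dimmer second probe set gave -0.03. Klk1b8, a tissue kallikrein protease, had 1708, 1724 and 1677 against 10070, 9748 and 8657, a change of -2.46 ± 0.08. Both were bright in WT and fell to a similar level on all 3 KO arrays. Cby3, a member of the Chibby family, had 410.2, 409.1 and 366.6 against 2817, 2849 and 2758, a change of -2.78 ± 0.07, with -0.78 on its dimmer probe set. Ubqlnl, a ubiquilin-like protein, had 1829, 2061 and 2068 against 11300, 10740 and 9468, a change of -2.39 ± 0.09. Efcab1, an EF-hand protein of motile cilia, changed by -2.47, Slc5a9, a sodium-coupled sugar transporter, by -2.41 and Defb11, a beta-defensin, by -2.43. For Slc5a9 the 3 dimmer probe sets gave 0.71, 1.04 and 0.50, in the other direction, and the dimmest ones of Efcab1 and Fam131b gave 0.57 and 0.12. The remaining 6 were 1700008P02Rik (-2.93), Nat8f4 (-2.90, with -0.76 and -0.29 on dimmer probe sets), Fam131b (-2.74), 1700009J07Rik (-2.39), 1700020A23Rik (-2.38) and Slamf9 (-2.36).

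**Figure D2:**
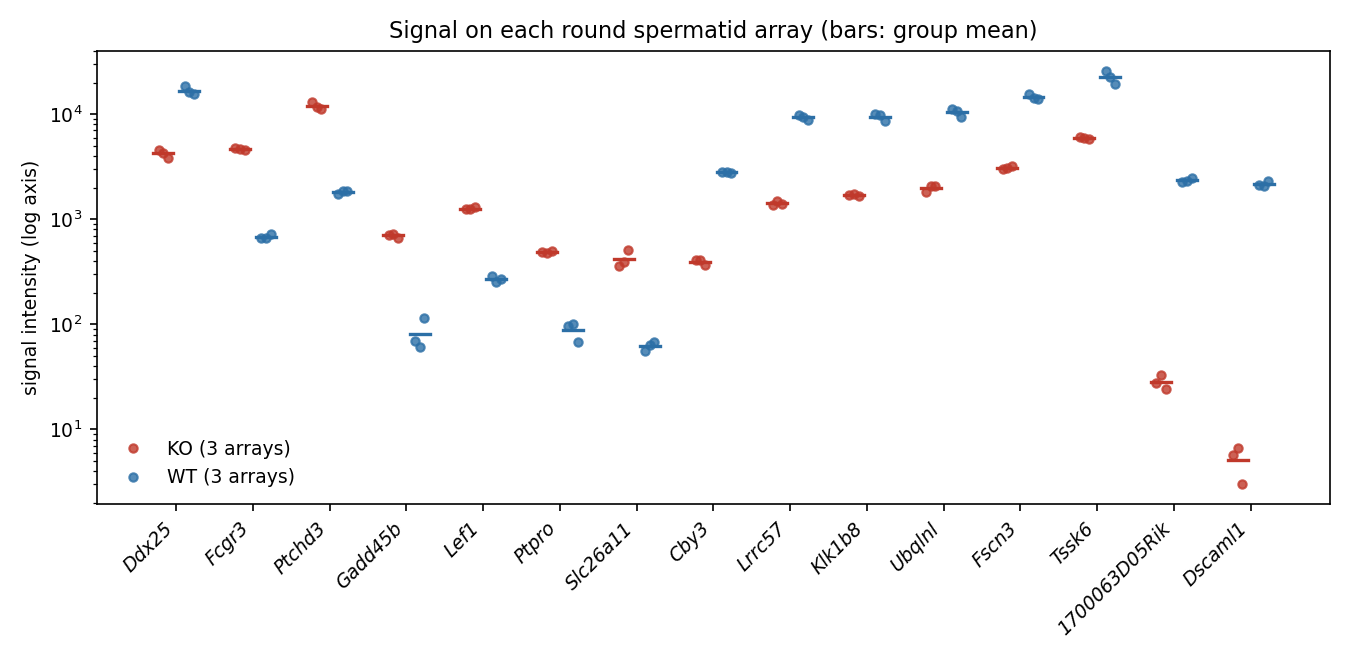
Signal intensity on a log axis for Ddx25, 6 of the genes that rose and 8 that fell in KO round spermatids, with 1 point per array, KO left of WT, and bars at group means. The KO and WT points are apart for every gene shown, from Ptchd3 (11160 to 12960 in KO, 1751 to 1874 in WT) to Dscaml1 (3.05 to 6.6 in KO, 2083 to 2327 in WT).

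Genes of elongating spermatids were lower together. All 21 markers tested were lower in KO round spermatids, beside 22.4% of all genes and 39.6% of those in the brightest of the 4 bins. Of these markers 10 were lower at least 2-fold, and the median log2 change was -0.95 beside 0.15 for all genes. The markers were chosen with earlier results of these data known, so this count is a description and not a test. Fscn3, a testis form of the actin-bundling protein fascin, had 2993, 3075 and 3222 on KO arrays and 15730, 14330 and 13940 on WT arrays, a change of -2.24 ± 0.07 (adjusted p = 2.09e-06). Oxct2a, a ketone body enzyme of haploid germ cells, had 5700, 5345 and 5289 against 20740, 18410 and 18320, a change of -1.81 ± 0.08. The 3 KO values of each gene lay close together, and the groups did not overlap. Tex37, a testis-expressed gene, changed by -1.75 and Lelp1, a late cornified envelope-like gene, by -1.39. The summed signal of the 21 markers was 292700 to 358300 on KO arrays and 503000 to 675800 on WT arrays, a ratio of 0.55. In RNA from a whole fraction, fewer cells of a type and less RNA per cell cannot be told apart. With arrays 1 and 2 averaged, 16 of the 21 stayed lower past the threshold, and with quantile normalization 18. 

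Chromatin proteins of condensing spermatids moved in both directions. Of 16 tested, 9 were lower, 4 higher and 3 did not pass, with a median of -0.35, where 22.4% of all genes were lower and 41% higher. With arrays 1 and 2 averaged 4 were lower, and after quantile normalization 6 were lower and 2 higher. The list median differed from that of all genes by -0.50 as deposited and by -0.09 after quantile normalization. Prm3, a protamine-related acidic protein, had 9573, 8827 and 9034 on KO arrays and 23830, 21540 and 19570 on WT arrays, a change of -1.24 ± 0.09 (adjusted p = 3.2e-05). H2al2a, a histone variant of condensing spermatids, had 8923, 8205 and 7512 against 20280, 18310 and 15070, a change of -1.11 ± 0.12. Protamines and transition proteins themselves, which replace the histones, changed by smaller amounts: Prm1 by -0.59 ± 0.16, Tnp1 by -0.52 ± 0.15, Tnp2 by -0.46 ± 0.16 and Prm2 by -0.35 ± 0.11 (adjusted p = 0.0148, 0.0168, 0.0396 and 0.0294). Prm1 had 31870, 28980 and 24070 on KO arrays and 49970, 44880 and 33680 on WT arrays, so the lowest WT array lay just above the highest KO array. Cdyl, a chromodomain protein, was lower (-0.60) on its brightest probe set, while its other 2 probe sets gave 0.17 and 0.11. Epc1, a subunit of a histone acetyltransferase complex, was higher (0.52) on its brightest probe set and gave -0.06 and -0.64 on the others.

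Round spermatid markers were lower in smaller steps: 12 of 19 were lower, 2 higher and 5 did not pass, with a median of -0.36. Over all genes 22.4% were lower and 41% higher, and in the brightest of the 4 bins 39.6% were lower. Prm1, Prm2, Tnp1 and Tnp2, all among the lower ones, are also elongating spermatid markers, so these lists are not separate results. Cby2, a Chibby family protein of spermatids, had 11440, 10550 and 10570 on KO arrays and 23850, 20980 and 20550 on WT arrays (adjusted p = 5.43e-05), and its groups did not overlap. Tssk2 changed by -0.93, Spaca7 by -0.53 and Tssk1 by -0.47. With arrays 1 and 2 averaged 7 were lower and 1 higher, and after quantile normalization 7 lower and 4 higher. The list median differed from that of all genes by -0.51 as deposited and by -0.05 after quantile normalization.

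In genes of the sperm tail, counts can be set against 41% higher and 22.4% lower over all genes. Of 21 fibrous sheath and dense fibre genes 14 were lower, 1 was higher and 6 did not pass (median -0.47). After quantile normalization 11 of them were lower and 4 higher. Akap4, the main scaffold of the fibrous sheath, had 17630, 16420 and 15290 on KO arrays and 40560, 36200 and 27070 on WT arrays, a change of -1.05 ± 0.15 (adjusted p = 0.000606). Gapdhs, the sperm form of glyceraldehyde-3-phosphate dehydrogenase, changed by -0.95, Cylc1 by -0.92 and Odf4 by -0.70, while Spag5, a mitotic spindle protein, was higher (0.74). Of 52 axoneme and intraflagellar transport genes 20 were higher, 7 lower and 25 did not pass. Their median was 0.10, close to the 0.15 of all genes. With the replicate number as a block 21 were higher and 11 lower. After quantile normalization 28 were higher and 7 lower, and their median lay 0.15 above that of all genes. Dnah2, an axonemal dynein heavy chain, had 2543, 2465 and 2476 on KO arrays and 1045, 1061 and 1127 on WT arrays, a change of 1.20 ± 0.06 (adjusted p = 1.01e-05). Its KO values were above every WT value by more than 2-fold. Ccdc40, a ruler protein of motile cilia, was also higher (0.87), as was Ttll1, a tubulin ligase (0.96, with 0.48 and -1.50 on dimmer probe sets), while Ift57, an intraflagellar transport protein, was lower (-0.86).

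Acrosome and egg-binding genes were mixed: 18 of 42 were lower, 7 higher and 17 did not pass, with a median of -0.18. Over all genes 22.4% were lower and 41% higher. After quantile normalization 14 of the list were lower and 13 higher. Actrt1, an actin-related protein of the perinuclear theca, had 958.2, 1017 and 991.4 on KO arrays and 2240, 2321 and 2179 on WT arrays, a change of -1.17 ± 0.06 (adjusted p = 1.15e-05). Spam1, the sperm hyaluronidase, changed by -0.98, Calr3, a testis calreticulin, by -0.93 and Izumo2 by -0.81. Of 16 tested members of the ADAM family of membrane metalloproteases, 7 were lower, 3 higher and 6 did not pass. Adam25, a testis member, had 448.8, 465.8 and 522.7 on KO arrays and 2079, 2118 and 2009 on WT arrays, a change of -2.08 ± 0.08 (adjusted p = 2.98e-06). Adam25 stood far below the others; Adam21 followed at -0.84.

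Among testis-specific kinases and phosphatases 12 of 27 were lower, 6 of them at least 2-fold, and 4 were higher (median -0.18). Over all genes 22.4% were lower and 41% higher. Tssk6, a serine kinase needed for chromatin condensation in mouse, had 6062, 5951 and 5761 on KO arrays and 25570, 22570 and 19540 on WT arrays, a change of -1.92 ± 0.10 (adjusted p = 1.02e-05). Tssk3 of the same family had 6885, 6537 and 6419 against 22400, 20740 and 17060, a change of -1.59 ± 0.11. Both kinases had KO values within a narrow range, well under every WT value. Ppp2r2b, a regulatory subunit of protein phosphatase 2A, changed by -2.27 ± 0.06 and Csnk1g2, a casein kinase 1, by -1.74 ± 0.09. The very dim second probe set of Ppp2r2b gave 0.51.

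Of 36 genes of sperm energy metabolism 15 were lower, 10 higher and 11 did not pass (median -0.14), where 22.4% of all genes were lower and 41% higher. After quantile normalization 11 were lower and 16 higher. Acsbg2, an acyl-CoA synthetase of the testis, had 3275, 3317 and 3339 on KO arrays and 8063, 7740 and 8340 on WT arrays, a change of -1.28 ± 0.06 (adjusted p = 7.55e-06). Aldoart2, a retrogene of aldolase, changed by -0.81 and Pkm, pyruvate kinase, by -1.10. Ion transport genes were lower in 8 of 22 and higher in 7, beside the same 22.4% and 41% of all genes. Atp1a4, the sperm sodium pump, changed by -0.86 and Cacna1h, a calcium channel, by 0.71. The other probe set of Cacna1h gave -0.29, and with the median over both the change was 0.21 (adjusted p = 0.0568). In the polyamine pathway, where 4 of 9 were lower and 2 higher, Azin2, an antizyme inhibitor, had 1577, 1655 and 1854 on KO arrays and 7370, 6890 and 7190 on WT arrays, a change of -2.07 ± 0.08. Its 2 dimmer probe sets gave 0.36 and -0.17. Oaz3, the antizyme of haploid germ cells, changed by -0.84 ± 0.15 on its brightest probe set, with 22920, 21100 and 17930 on KO arrays and 43780, 38550 and 29650 on WT arrays. Its other 5 probe sets gave -1.83 to 0.39, and with their median the change was -0.28 and did not pass (adjusted p = 0.174).

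Ubiquitin ligases and conjugating enzymes were higher in 17 of 59 and lower in 18, where 41% of all genes were higher and 22.4% lower. Among them 6 of the lower ones and 1 of the higher ones passed 2-fold. Ube2g2, a ubiquitin-conjugating enzyme of endoplasmic reticulum degradation, had 833.8, 833.2 and 849.7 on KO arrays and 3066, 3177 and 3216 on WT arrays, a change of -1.89 ± 0.06; its other probe set gave -0.04. Rnf133, a testis RING-finger ligase, had 6444, 6389 and 6329 against 19240, 17450 and 16050, a change of -1.45 ± 0.08. Heat shock proteins and chaperones were lower in 17 of 46 and higher in 9; with arrays 1 and 2 averaged 11 were lower and 6 higher, and after quantile normalization 14 lower and 15 higher. Hspa1l, a testis member of the HSP70 family, had 5996, 5767 and 5966 on KO arrays and 19100, 17500 and 17180 on WT arrays, a change of -1.60 ± 0.07. Bag1, a co-chaperone, changed by -1.17 and Dnajb8 by -1.24. X- and Y-linked spermatid genes were lower in 10 of 19 and higher in 5 (median -0.42), led by H2ap, an X-linked histone-like gene (-1.35).

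The 15 largest rises lay between log2 changes of 1.87 and 4.12. Asprv1, an aspartic protease known from skin, rose most, with 728.9, 756.1 and 855.4 on KO arrays against 11.2, 12.8 and 104.9 on WT arrays. WT array 3 stood apart from the other WT arrays; the log2 change was 4.12 ± 0.52 (adjusted p = 0.000389) and 4.83 without that array. Nrip2, a nuclear receptor interacting protein, changed by 2.98 ± 0.56, with 2996, 3620 and 906 on KO arrays and 345.5, 369 and 131.7 on WT arrays; its 2 dim probe sets gave -0.08 and -1.01. Gadd45b, a stress-inducible gene, had 712.3, 722.6 and 670.5 against 68.9, 60.4 and 114.2, a change of 2.92 ± 0.18, while its other probe sets gave -0.06 and 0.48.

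Fcgr3 and Ptchd3 were the brightest of the leading rises and varied little between arrays. Fcgr3, a low-affinity Fc receptor for IgG, had 4764, 4651 and 4579 on KO arrays against 665.5, 669.8 and 721.9 on WT arrays, a change of 2.74 ± 0.06 (adjusted p = 1.23e-06). Ptchd3, a patched-domain protein of male germ cells, had 12960, 11760 and 11160 against 1751, 1874 and 1866, a change of 2.69 ± 0.08 (adjusted p = 1.72e-06). All KO values of both genes lay far above every WT value. Lef1, a transcription factor of Wnt signalling, had 1250, 1240 and 1302 against 289.2, 253.2 and 268.4, a change of 2.16 ± 0.07; its second probe set gave 0.96. Ptpro, a receptor tyrosine phosphatase, changed by 2.29 ± 0.13, and Tnk1, a non-receptor tyrosine kinase, by 2.28 ± 0.17, with second probe sets at 2.46 and 2.23. Slc26a11, an anion transporter, changed by 2.47 ± 0.13, Lrrc61 by 2.03 ± 0.08, Meox1, a homeobox factor, by 1.92 ± 0.08 and Spdef, an Ets factor, by 1.87 ± 0.13. Pard6g, a cell polarity protein, changed by 1.93 ± 0.19, with -0.03 on its other probe set. Rrp9, a ribosomal RNA processing factor, changed by 2.05 ± 0.64 (adjusted p = 0.0246) with WT array 3 at 347.5 beside 68.1 and 34.3 on the other WT arrays, and by 2.87 without that array. Without WT array 1 or 2 its adjusted p was 0.0731 and 0.0624, and without KO array 1 or 3 it was 0.0543 and 0.0764. Smim19 likewise had 220.7 on WT array 3 beside 54.2 and 46.2; its change was 1.96 ± 0.46, and 2.57 without that array.

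Genes of RNA metabolism were more often higher than lower in KO round spermatids, as were all genes tested (41% higher, 22.4% lower). Of 51 germ cell RNA-binding translation regulators 28 were higher, 5 lower and 18 did not pass (median 0.31). Elavl1, the mRNA-stabilising protein HuR, had 667.6, 600.1 and 603.6 on KO arrays and 240.7, 186.3 and 229.4 on WT arrays, a change of 1.45 ± 0.10 (adjusted p = 3.26e-05) on its brightest probe set; its other 5 gave -0.03 to 0.54. Ptbp2, a splicing regulator of germ cells, changed by 0.74. Akap1, which anchors mRNA and kinases at mitochondria, changed by -1.07 ± 0.07, with -0.47 on its dimmer probe set. The helicase family to which GRTH belongs had 28 of 45 members higher and 4 lower, Ddx25 being 1 of the lower ones, with a median of 0.35. Ddx52 changed by 0.91 and Ddx24 by 0.78 (0.34 with the median over its probe sets, adjusted p = 0.311), and Eif4a2, a translation initiation helicase, by -0.76. Of 36 nuclear mRNA export genes 23 were higher and 5 lower (median 0.36). Rangap1, the GTPase-activating protein of RAN, fell by 1.51 on its brightest probe set (4015, 3933 and 4071 in KO, 12200, 11270 and 10850 in WT), with 0.11 and -0.20 on the others. Chtop, an export adaptor, changed by 0.86, and by 0.43 on a probe set that was brighter in round spermatids. Srsf3, a splicing and export factor, changed by 0.83 on its brightest probe set and by -0.11 to 0.61 on the others, and with the median over probe sets did not pass (0.12, adjusted p = 0.242).

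For the next lists too, 41% of all genes were higher and 22.4% lower. Of 51 genes for mRNA decapping, deadenylation and decay 27 were higher, 9 lower and 15 did not pass (median 0.25), with 14 lower and 19 higher after quantile normalization. Edc4, a scaffold of the decapping complex, had 2918, 2916 and 2513 on KO arrays and 865.5, 890.2 and 830.2 on WT arrays, a change of 1.67 ± 0.08 (adjusted p = 7.39e-06). Smg8, a subunit of the nonsense-mediated decay kinase complex, had 439.6, 449 and 433 against 169.2, 173.7 and 164.5, a change of 1.30 ± 0.06. Neither gene's groups came near each other. Tob2, which recruits deadenylases, changed by 1.09, with -0.57 to 1.09 on its other probe sets. In the piRNA pathway and chromatoid body 14 of 28 were higher and 4 lower, 7 lower with the replicate number as a block; Piwil1, a piRNA-binding Argonaute, changed by 0.85 and Tdrd9 by 0.81, and Kif17, a kinesin of the chromatoid body, by -1.01. MicroRNA processing genes were higher in 6 of 14, a share near that of all genes, with a median of 0.22 beside 0.15. With the block 1 was lower. Tnrc6b changed by 0.63 and Tarbp2 by 0.49. Other probe sets gave -0.03 and -0.50 for Tnrc6b and 0.05 for Tarbp2, and Tarbp2 did not pass with the median over its probe sets (0.27, adjusted p = 0.0582). Translation factors were higher in 15 of 52 and lower in 8, with 29 not passing, and with arrays 1 and 2 averaged 7 were higher and 7 lower. Eif1ax changed by -1.13 and Eef1d by -1.14.

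**Figure D3:**
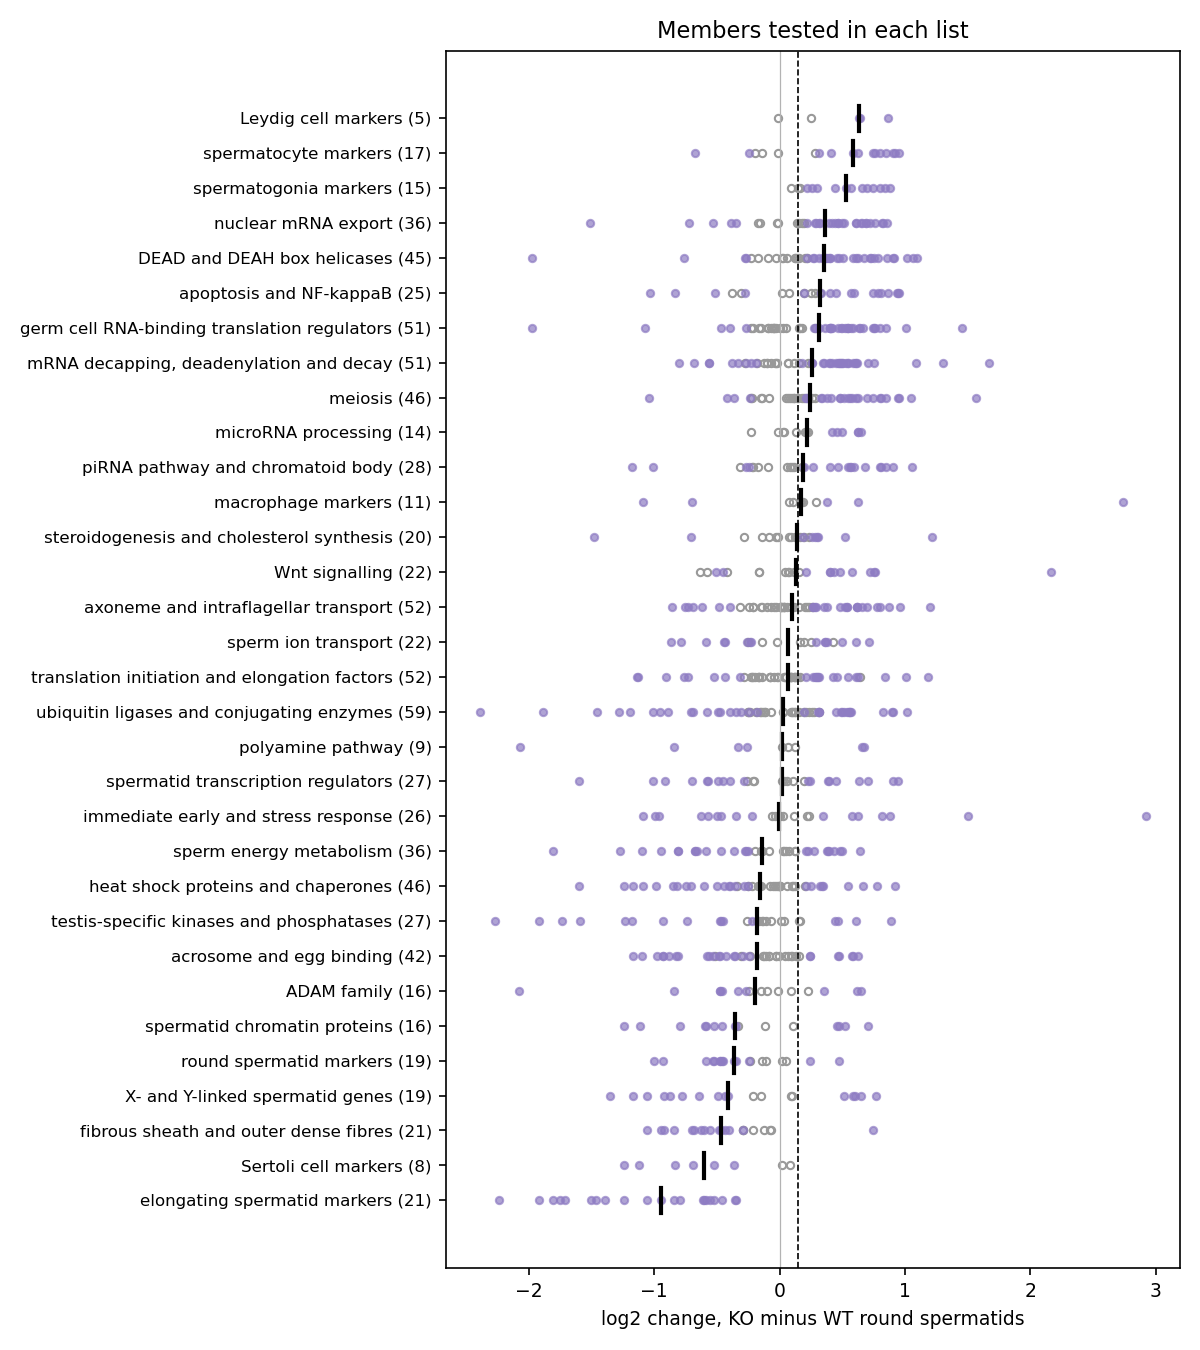
Log2 change (KO minus WT round spermatids) of every tested member of each gene list except the peritubular myoid, endothelial and red blood cell lists, which had few or no members tested. Points are filled for an adjusted p below 0.05 and open for the rest, with black bars at list medians and the number tested in brackets. The dashed line is the median of all genes tested, 0.15. Medians of the lists shown run from -0.95 for elongating spermatid markers to 0.63 for Leydig cell markers.

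Many markers of earlier germ cells were higher in the KO fraction, where 41% of all genes were. Spermatocyte markers were higher in 11 of 17 and lower in 2, with a median of 0.58, and spermatogonia markers were higher in 12 of 15, with 3 not passing and a median of 0.53. Mybl1, a transcription factor of meiotic cells, had 414.1, 413.5 and 365.8 on KO arrays and 198.4, 209.4 and 207.2 on WT arrays, a change of 0.90 ± 0.07 (adjusted p = 5.43e-05). Ccna1, the meiotic cyclin A1, changed by 0.74 and Dazl, an RNA-binding protein of early germ cells, by 0.80. The summed signal of spermatocyte markers was 102000 to 117000 on KO arrays and 99110 to 125100 on WT arrays, so the groups overlapped, and that of spermatogonia markers was 20360 to 20850 on KO arrays and 15420 to 15580 on WT arrays. None of the 17 and 22 measured markers had a mean signal below 50 in either genotype. Of 46 meiosis genes 23 were higher and 4 lower (median 0.24); Cdk1, a kinase of the cell division cycle, had 2067, 2083 and 1838 on KO arrays and 985.9, 1075 and 1030 on WT arrays, a change of 0.94 ± 0.08. These markers moved with the RNA metabolism lists above, and their part in those results was not tested.

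Markers of somatic testis cells moved in both directions, where 41% of all genes were higher and 22.4% lower. Sertoli cell markers were lower in 6 of 8 tested, 2 of them at least 2-fold; Cst9, a cystatin, had 297, 294.6 and 308.8 on KO arrays and 687.7, 754.7 and 759.5 on WT arrays, a change of -1.25 ± 0.07. Their summed signal was 4443 to 4738 on KO arrays and 6338 to 6601 on WT arrays, and of the 23 measured 4 and 5 had mean signals under 50. Leydig cell markers were higher in 3 of 5 tested, with 2 not passing and a summed signal of 6577 to 6750 on KO arrays and 5366 to 5977 on WT arrays; Cyp17a1, a steroidogenic enzyme, changed by 0.64. Macrophage markers were higher in 3 of 11, Fcgr3 among them, and lower in 2, with sums of 16260 to 17320 on KO arrays and 19310 to 24170 on WT arrays. C1qb, a complement protein of macrophages, and Aif1, a calcium-binding protein that spermatids also express, were the lower ones (-0.70 and -1.09). The mean signal of Aif1 was 8292 in KO and 17790 in WT, beside mean macrophage sums of 16850 and 22150. The lower KO sum thus rests on Aif1, while Fcgr3 had 4665 in KO and 685.8 in WT. The part of somatic cells in the results was not tested. Peritubular myoid markers were lower in 3 of 4 tested, and with the replicate block 2 were lower and 1 higher. Actg2 (-1.15) had mean signals of 5288 in KO and 11810 in WT, beside mean sums of 7115 and 13910 over the 15 measured. The lower KO sum of this list thus rests mainly on Actg2. Acta2 changed by 0.25 and did not pass (adjusted p = 0.0707). Mylk (-0.37) gave 0.018 with the median over its probe sets. Endothelial markers were higher in 1 and lower in 1 of 2, and no red blood cell marker passed the filter.

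**Figure D4:**
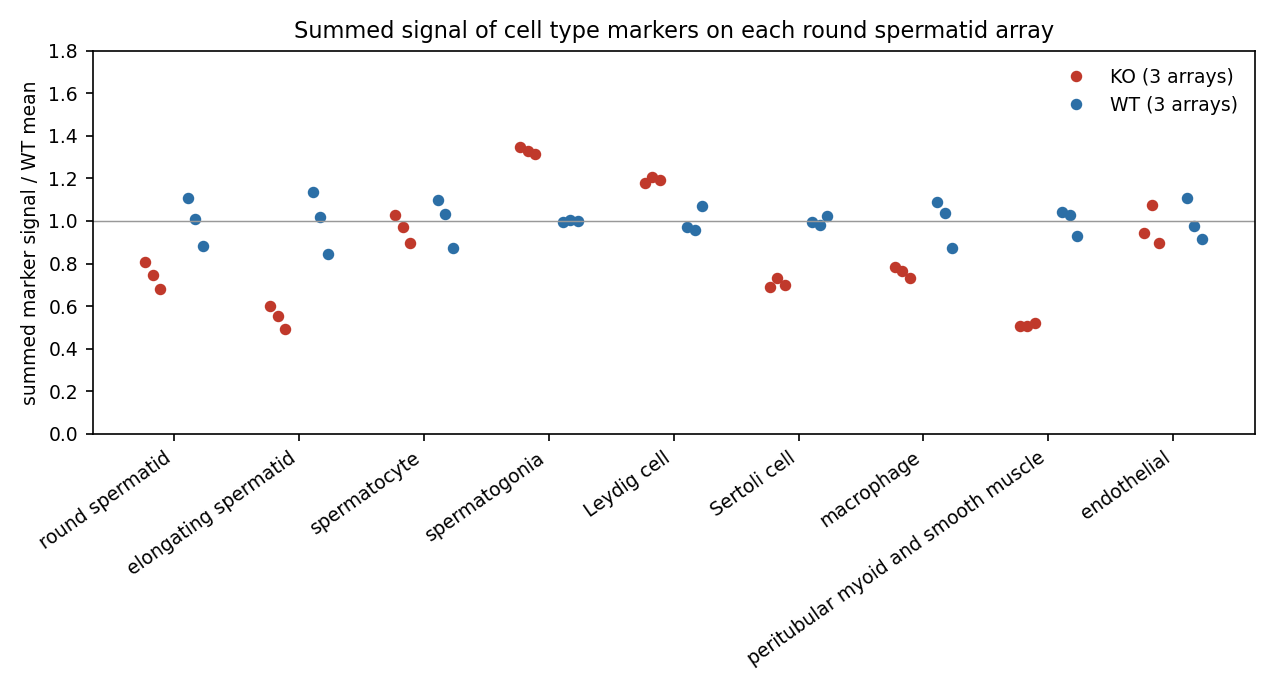
Summed signal of cell type markers on each round spermatid array, divided by the WT mean of the same list, KO left of WT, 1 point per array. The elongating spermatid sum was lower on every KO array (ratio of means 0.55), the spermatogonia sum higher (1.33), and the spermatocyte sums overlapped (0.965).

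Regulators and stress genes changed in both directions, and the counts here are to be set against 41% higher and 22.4% lower over all genes. Of 27 spermatid transcription regulators 9 were higher, 10 lower and 8 did not pass (median 0.02). Crem had 7488, 7260 and 6550 on KO arrays and 10680, 9958 and 8622 on WT arrays, a change of -0.45 ± 0.10 (adjusted p = 0.00493). Cstf2t, a polyadenylation factor of germ cells, changed by 0.94. Apoptosis and NF-kappaB genes were higher in 13 of 25 and lower in 4. Bcl2l14 changed by -1.04, with -0.48 on its dimmer probe set. Bcl2l11, a pro-apoptotic BH3 protein, changed by 0.93 on its brightest probe set (-0.20 to 0.16 on the others). Wnt genes were higher in 10 of 22 and lower in 2, with 5 lower under the replicate block. Immediate early and stress genes were higher in 7 of 26 and lower in 9; Edem1, a factor of endoplasmic reticulum degradation, had 1632, 1926 and 1827 on KO arrays and 596.6, 614.8 and 660.3 on WT arrays, 2.83-fold higher (adjusted p = 1.21e-05), while its dimmer probe set gave 0.09. Sod1, superoxide dismutase, was lower (-1.09), with other probe sets between -0.77 and 0.24. In steroidogenesis and cholesterol synthesis 7 of 20 were higher and 2 lower (1 and 2 with arrays 1 and 2 averaged), and Lipe, hormone-sensitive lipase, changed by -1.48 ± 0.10.

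Spermatocytes, the cells before round spermatids, showed a smaller spread of changes: the SD of the log2 change over genes was 0.572 in round spermatids and 0.301 in spermatocytes. In spermatocytes 19.6% of the 9097 genes tested there were called higher in KO and 17.8% lower. Of the 371 genes at least 2-fold lower in KO round spermatids, 283 were tested in spermatocytes and 250 were lower there too (88.3%), 62 of them at least 2-fold. Their median change there was -0.70, beside 0.03 for all genes. Mean WT signals in spermatocytes and round spermatids were 1494 and 14670 for Fscn3, 2099 and 17890 for H2al2a, and 14910 and 16690 for Ddx25. The fractions are enriched only, and whether spermatid RNA is present in the spermatocyte fraction was not tested. Tssk6 changed by -1.92 in round spermatids and -1.94 in spermatocytes, and Prm3 by -1.24 in round spermatids and -1.22 in spermatocytes. Of the 285 genes at least 2-fold higher, 247 were tested and 143 (57.9%) were higher in spermatocytes, with a median of 0.24. Fcgr3 and Ptchd3 changed by 2.25 and 2.20 there. The change in round spermatids minus that in spermatocytes passed an adjusted p of 0.05 for 4186 genes (46%). Of these, 2941 had a positive difference and 1245 a negative one. With round spermatid arrays 1 and 2 averaged, and spermatocyte arrays averaged in pairs too, the count was 1737.

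Edc4 had a log2 change of 0.08 in spermatocytes, and its difference was 1.59 (adjusted p = 9.4e-08). For Lef1 the difference was 1.84 (adjusted p = 2.1e-07), and for Bag1 -1.13 (adjusted p = 5.5e-07). Nrip2, Rab6b and Pik3cd had changes of opposite sign in round spermatids and spermatocytes, with differences of 3.75, 2.73 and 2.40; the spermatocyte change of Nrip2 alone, -0.77, did not pass (adjusted p = 0.17). Rab6b, a Golgi GTPase, had 1218, 809.7 and 1175 on KO arrays and 501.1, 347.2 and 245.1 on WT arrays of round spermatids. Its change there was 1.54, and its other probe sets gave -0.09, 1.05 and 0.83. Plekha3, a lipid-binding protein of the Golgi, had 388.8, 396.1 and 387.2 on KO arrays and 1981, 2015 and 1559 on WT arrays and a difference of -1.85, which was 0.0053 with the median over its probe sets.

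**Figure D5:**
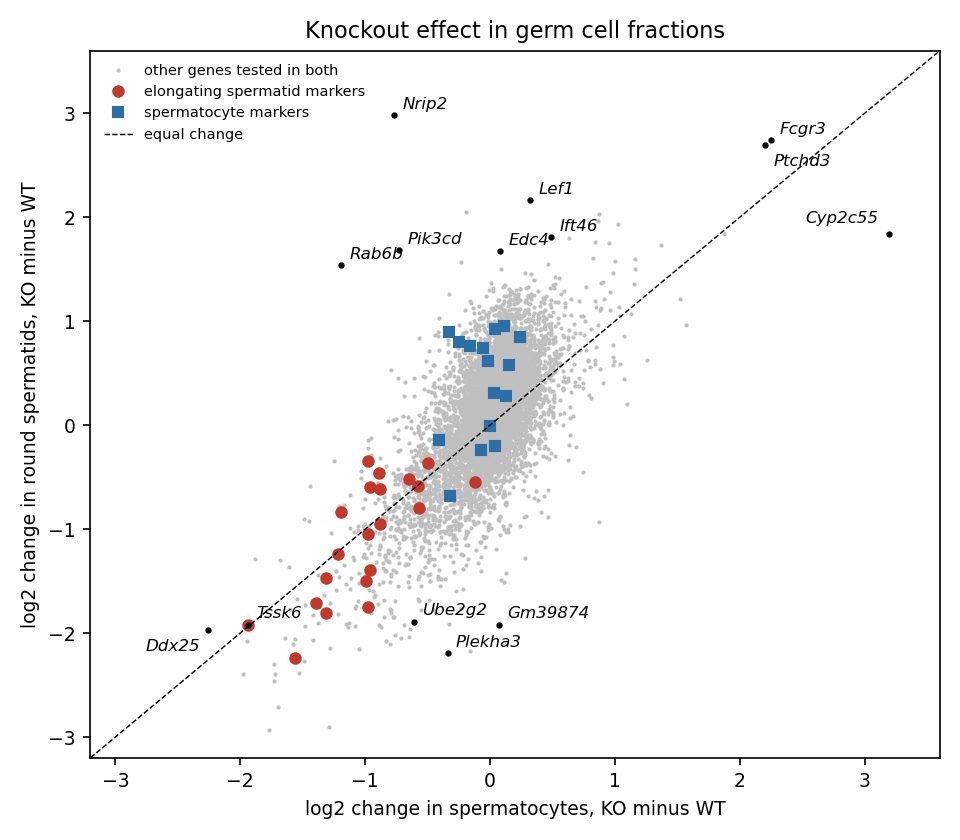
Log2 change in round spermatids against log2 change in spermatocytes (both KO minus WT), 1 point per gene tested in both, with a dashed line of equal change. Elongating spermatid markers lie low on both axes and most spermatocyte markers lie above the line; Fcgr3 and Ptchd3 are high on both axes, while Lef1 and Edc4 are high in round spermatids with spermatocyte changes of 0.32 and 0.08.

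Total polysome RNA comes from whole testes and holds the RNA engaged with ribosomes. Of the 6 polysome arrays, 4 were deposited on another scale and rescaled here, and the free-text descriptions of 3 (WT arrays 1 and 2, KO array 1) name another group than their titles, which were followed. There 52 of the 9097 genes tested were called higher in KO (0.572%) and 525 lower (5.77%). Of the genes at least 2-fold lower in KO round spermatids, 269 were tested in polysomes and 192 were lower (71.4%), with a median of -1.80 beside 0.13 for all genes. Elongating spermatid markers were lower in all 21 cases there, with a median of -2.81. Of the genes at least 2-fold higher in KO round spermatids, 231 were tested and 11 were higher in polysomes (4.76%), with a median of 0.38. The difference between round spermatids and polysome RNA passed for 254 genes (2.79%), 205 positive and 49 negative. Fcgr3 had a log2 change of -0.26 in polysomes (adjusted p = 0.64), and the difference was 3.00 (adjusted p = 0.00058). Ptchd3 had -0.68 (adjusted p = 0.12), and its difference was 3.38 (adjusted p = 1.8e-05). Lef1 had 0.10 and a difference of 2.06 (adjusted p = 0.0064). For these 3 genes the RNA was higher in KO round spermatids, while the change in polysome RNA did not pass the test. Ddx25 itself had -4.35 in polysomes, a difference of 2.37 (adjusted p = 0.0032). The count of 254 changed when single arrays were left out: it was 75, 76 and 97 without KO round spermatid array 1, 2 or 3, and 83, 70 and 113 without WT round spermatid array 1, 2 or 3. Without WT polysome array 2 it was 725.

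In the Leydig cell fraction, with 2 arrays a genotype, 38.6% of genes tested were called higher in KO and 39.3% lower. Of the genes at least 2-fold lower in KO round spermatids, 312 were tested and 299 were lower (95.8%), with a median of -1.01. Of those at least 2-fold higher, 240 were tested, 157 were higher and 25 lower, with a median of 0.20. All 21 elongating spermatid markers were lower in that fraction, with a median of -0.84, so RNA of spermatid genes was measurable there; whether germ cells are present in that fraction was not tested.

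The neighbours of Ddx25 on its chromosome were called at a share near that of all genes. Of the 100 protein-coding genes within 50 on each side on chromosome 9, 37 were tested, 23 were called (62.2%, beside 63.4% of all genes) and 4 changed at least 2-fold (10.8%, beside 7.21% of all genes and 8.75% of those on chromosome 9). These were Herpud2, a protein of the unfolded protein response (-1.77), Pate14 (-1.18), Septin7 (1.11) and St3gal4, a sialyltransferase (1.02). Other probe sets gave -0.21 and -0.45 for Herpud2 and 0.48 and -0.25 for Septin7, all under 2-fold. Over the 37 genes 12 were higher and 11 lower, with a median of 0.03. Dscaml1, which fell most, lies 208 genes from Ddx25 on the same chromosome.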

How the data were processed

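The series holds 28 mouse expression arrays of 1 colour. The deposited values are signal intensities on a linear scale, 1 per probe set; GCOS, the array software of Affymetrix, made them per the submitters' processing notes, and its settings were not stated. The authors had scaled the intensity values of 24 arrays to a trimmed mean of 500 (0.02 trimmed at each end); 4 polysome arrays were on another scale, so every array was rescaled to 500. The 6 round spermatid arrays were the 3 KO and 3 WT arrays so titled. Signals were transformed to log2(signal + 16). Probe sets were named through the platform annotation, the probe set with the highest mean over all arrays stood for each of 18193 genes, and the 9097 genes whose mean over the compared arrays reached the median were tested.

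KO and WT were compared with the lmFit and eBayes functions of limma 3.58.1 (R 4.3.3, data.table, version 1.17.8), groups of each comparison alone, with Benjamini-Hochberg adjustment and a threshold of 0.05. Errors are SE of the log2 change. Differences between fractions were interaction terms. On simulated data for 9097 genes, with 200 changed, the round spermatid test recovered 66% at a log2 change of 0.5 and 92% at 1, with 10 false calls. The simulated noise was independent between arrays, unlike that of the real arrays, so these false calls do not give the rate in the real data. Same-numbered KO and WT arrays deviated together from their group means (correlations 0.247, 0.138 and 0.245 for numbers 1, 2 and 3), so the numbers were taken to pair the samples, and a fit with the number as a block was made. With 3 arrays a genotype, their number limits the precision.

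Alternatives were median centring, quantile normalization, offsets of 1 and 64, no filter and an upper quartile filter, the median over a gene's probe sets, the block, arrays 1 and 2 averaged, array weights, a mean-dependent prior, a fit over the 14 germ cell arrays, and leaving out each array. Genes named were Ddx25, the 15 largest rises and 15 largest falls among calls whose groups do not overlap, the 4 members per list whose adjusted p was lowest (fewer in short lists), called neighbours within 50 genes of Ddx25, and the 5 largest differences from spermatocytes in each direction; the text names a part of these. Prm1, Prm2, Tnp1, Tnp2, Akap4 and Crem were added after their values were seen. Members and lists were chosen with earlier results of these data known. Python 3.11.15 (numpy 2.4.6, pandas 2.3.3, matplotlib 3.10.9) was used for summaries and plots.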

Additional observations from a re-analysis of the deposited data

Results flagged for a closer look

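The knockout effect differed between round spermatids and spermatocytes, by an interaction test, for 4186 genes, and between round spermatids and total polysome RNA for 254. The largest positive differences from spermatocytes (log2) were Nrip2 at 3.75, Rab6b at 2.73, Pik3cd at 2.40, Rrp9 at 2.23 and Gadd45b at 2.19. The largest negative ones were Slc5a9 at -2.20, Vmn1r44, a gene named as a vomeronasal receptor, at -2.0, Gm39874 at -1.98, Plekha3 at -1.85 and Efcab1 at -1.80. Vmn1r44 had 428.8, 520.7 and 395.6 on KO round spermatid arrays against 1886, 2152 and 2142 on WT arrays. Pik3cd, a catalytic subunit of phosphoinositide 3-kinase, had 8232, 7960 and 6161 on KO arrays against 3500, 3177 and 1091 on WT arrays; its log2 change of 1.68 was 1.14 without WT array 3.

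In 2 of these genes a single WT spermatocyte array stood far from the other 3. Its gap to the nearest array, divided by the whole range, was 0.881 for Nrip2 and 0.925 for Slc5a9. The limit used, Dixon's 95% critical value, is passed by chance in about 1 of 20 groups, and 20 groups were looked at. It looks for a single outlying array and does not show a split into pairs. KO spermatocyte arrays 1 and 2 lay above the other KO arrays for Nrip2 (224 and 250.3 against 79.19 and 74.78). The same held for Pik3cd (1258 and 1192 against 677.1 and 599.3) and Vmn1r44 (318.6 and 251.8 against 102.2 and 87.69). In the other genes such a split was smaller or absent.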

How the results depend on the processing

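The count of genes called in KO round spermatids, 5765, was 4984 to 6098 with 1 array left out, and 3112 with the upper quartile filter, which tests 4549 genes (1682 higher). With the replicate block it was 6163 (3949 higher, 2214 lower). Genes at least 2-fold higher numbered 76 after quantile normalization, 183 with an offset of 64, 480 with no filter and 76 with the upper quartile filter, and genes at least 2-fold lower 557 with no filter. Differences from spermatocytes numbered 2516 with the upper quartile filter and 1737 with arrays 1 and 2 averaged, the spermatocyte arrays being averaged in pairs. Differences from polysome RNA numbered 441 with centred arrays, 474 after quantile normalization, 72 with no filter, 157 with the median over probe sets and 1131 with array weights, and 70 to 725 with 1 array left out. The median over probe sets turned the direction of 8 called genes: Cdyl 0.17, Epc1 -0.064, Rangap1 0.11, Bcl2l11 -0.15, Sod1 0.15, Mylk 0.018, Zbtb44 -0.069 and Srpr -0.023, and of the difference from spermatocytes for Plekha3 (0.0053). Of 174 named genes called, 27 lost the call under at least 1 alternative: 19 with the median over probe sets, 9 with arrays 1 and 2 averaged, 5 after quantile normalization, 7 with an array left out and 2 with the block, Mylk (adjusted p = 0.0944) and Foxred1 (0.0806). The block gave a call to 1 further named gene, Acta2, moved the list counts for the axoneme, piRNA, microRNA, Wnt and peritubular lists by over 1.5 times and the other list counts by no more, and changed no other call of a named gene. The causes were not tested. Dim genes limit the precision of folds.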
